A study of Mus musculus with 2 samples.

Results

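The genes described here encode the machinery with which a mature olfactory sensory neuron turns an odorant into an electrical signal. They were taken as a list of 10 gene symbols, Omp, Gnal, Adcy3, Cnga2, Cnga4, Cngb1, Gng13, Ano2, Ric8b and Stoml3, out of 22184 named genes. Of these, 8 were measured by a transcript cluster that carried their symbol alone. A transcript cluster is the set of array probes that is summarised to a single value. The other 2, Adcy3 and Gng13, were covered only by clusters that also name a neighbouring gene.

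RNA came from the nasal mucosa of C57BL/6 mice aged 4 to 6 weeks that had received papain or phosphate-buffered saline (PBS) by instillation and were labelled as day 3. Papain, a cysteine protease from papaya latex, serves as a model allergen, and PBS is the vehicle. Each treatment was hybridised to 1 Affymetrix Mouse Gene 2.0 ST array, and no other allele or agent is given in the labels. A specimen pooled 4 samples, in the words of the series design, which leave it unstated whether each array had 4 of its own. A single array per treatment gives no spread between animals, so no test was possible and every difference below compares these 2 specimens.

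In an olfactory neuron, an odorant receptor on the cilia activates a G protein made of the alpha subunit Gnal with beta and gamma partners, among them Gng13. The G protein stimulates adenylyl cyclase Adcy3, and the cyclic AMP it makes opens a channel built from Cnga2, Cnga4 and Cngb1. Calcium that enters through this channel opens the chloride channel Ano2, which amplifies the current. Ric8b assists the folding and activation of Gnal, Stoml3 is a membrane protein of the stomatin family in olfactory cilia, and Omp is the cytoplasmic protein used as the standard marker of mature olfactory neurons.

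RefSeq promoter windows (GRCm38.p6) were found for 8 of the 10 genes, and 250 bases before the annotated start site were read. The 4 below are shown because they belong to the genes with the lowest ratio (Cnga2), to its channel partner (Cnga4), to another gene with a low ratio (Stoml3) and to a cofactor gene with a CpG-rich window (Ric8b). They are written 5′ to 3′ on the strand of the gene, and capitals mark CpG dinucleotides, the sites of DNA methylation.
Cnga2 (chrX:71991599-71991848, + strand): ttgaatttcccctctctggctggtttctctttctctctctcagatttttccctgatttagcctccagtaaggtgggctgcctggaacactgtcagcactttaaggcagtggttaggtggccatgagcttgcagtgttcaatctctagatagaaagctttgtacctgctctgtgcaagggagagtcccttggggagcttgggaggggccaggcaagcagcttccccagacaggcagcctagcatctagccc
Cnga4 (chr7:105404318-105404567, + strand): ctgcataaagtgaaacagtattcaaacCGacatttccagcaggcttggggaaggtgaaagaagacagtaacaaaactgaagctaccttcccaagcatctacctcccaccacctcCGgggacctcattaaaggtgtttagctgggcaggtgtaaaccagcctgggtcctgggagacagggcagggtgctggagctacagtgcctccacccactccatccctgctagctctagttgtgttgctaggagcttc
Stoml3 (chr3:53488457-53488706, + strand): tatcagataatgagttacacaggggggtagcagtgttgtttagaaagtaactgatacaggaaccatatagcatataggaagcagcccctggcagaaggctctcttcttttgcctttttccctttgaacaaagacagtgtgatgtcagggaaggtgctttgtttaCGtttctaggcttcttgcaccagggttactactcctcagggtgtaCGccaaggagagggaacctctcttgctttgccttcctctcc
Ric8b (chr10:84917363-84917612, + strand): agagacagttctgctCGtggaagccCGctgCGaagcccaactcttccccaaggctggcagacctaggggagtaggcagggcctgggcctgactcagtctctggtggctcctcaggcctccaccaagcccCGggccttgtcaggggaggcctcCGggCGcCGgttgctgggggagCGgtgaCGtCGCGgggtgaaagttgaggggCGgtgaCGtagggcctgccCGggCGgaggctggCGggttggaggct

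The windows of Cnga2, Cnga4 and Stoml3 held 0, 2 and 2 CpG dinucleotides, and that of Cngb1 held 3, against a median of 6 over the 32851 promoter windows of the table. Ric8b held 16, and 27.3% of all windows held 15 or more. Adcy3, Gng13 and Ano2 each have several annotated start sites, with 6 and 27 CpG in the windows of Adcy3, 2 and 25 in those of Gng13, and 4, 8 and 12 in those of Ano2. The table thus holds both CpG-poor and CpG-rich promoters among genes of the same cascade. The core of the site bound by the Olf-1/EBF factors, TCCC followed by 2 free letters and GGGA, was in none of the 12 member windows and in 0.779% of all windows, searched on both strands. TAATTA, a homeodomain word, was in 0 of the 12 and in 4.84% of all windows, and TATAAA was in 0 of the 12 and in 12.4%. Only exact matches were counted, and Omp and Gnal had no window in this search. None of these words overlapped another in the member windows, since none occurred there. The search says nothing about inexact matches, about Omp and Gnal or about binding elsewhere.

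All 8 measured genes gave clear signals in both arrays. Background was taken as the level of 33 measured genes of other tissues, whose median log2 signal was 4.91 after papain and 4.97 after PBS and whose 95 percentile over both arrays was 6.29. Odf1, listed among these 33, stood out at 10.48 after papain and 10.91 after PBS. Every one of the 8 transduction genes read above 6.29 in both arrays. The labelled tissue also showed its other markers, with Cyp2g1, a cytochrome of olfactory supporting cells, at 12.53 after papain and 12.51 after PBS. Marker genes of vomeronasal neurons were much brighter in the papain array, as given further on.

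The transduction genes lay slightly lower in the papain array, and none reached 1.5-fold. Their log2 ratios, papain minus PBS, ran from -0.57 to 0.14 with a median of -0.27. Of the 8 ratios, 7 were below 0, while 54.4% of all named genes and 63.8% of the 6029 genes above the 75 percentile of signal, a log2 signal of 7.64, were below 0 too. All members but Cngb1 belong to that bright group, whose median ratio was -0.09. Lower by at least 0.32 on the log2 scale were 3 of the 8, Cnga2, Gnal and Stoml3, against 17.3% of all named genes and 19.3% of the bright ones. Past 1.5-fold in either direction were 0 of the 8, against 9.71% and 6.95%, and past 2-fold were 0 of the 8, against 2.56% and 1.84%. In bulk RNA of this kind, the number of olfactory neurons, the RNA per neuron and the share of other tissue in the specimen cannot be told apart.

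Only probe error could be estimated, and it holds no variation between animals. The SD of a single cluster's log2 ratio was 0.32 among 1082 genes with several clusters, dim ones included, and 0.23 among the 88 genes with several bright clusters. By the first, the members farthest from 0 were Cnga2 at 1.78 SD, Gnal at 1.47 SD and Stoml3 at 1.37 SD. The second fits the brightness of all members but Cngb1 and was chosen after seeing the data. By it Cnga2, Gnal and Stoml3 lay 2.51, 2.08 and 1.93 SD from 0. These distances are from 0, whereas the median ratio of the bright genes was -0.09. The share of all genes past the same distances was not counted, so the distances do not set the members apart from other genes. Loess adjustment of the ratios for mean signal moved the members' median to -0.19 and left 6 of 8 below 0. It moved the median of genes above the median signal from -0.10 to 0.0015. The share of all genes below 0 after loess was not counted.

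**Figure D1:**
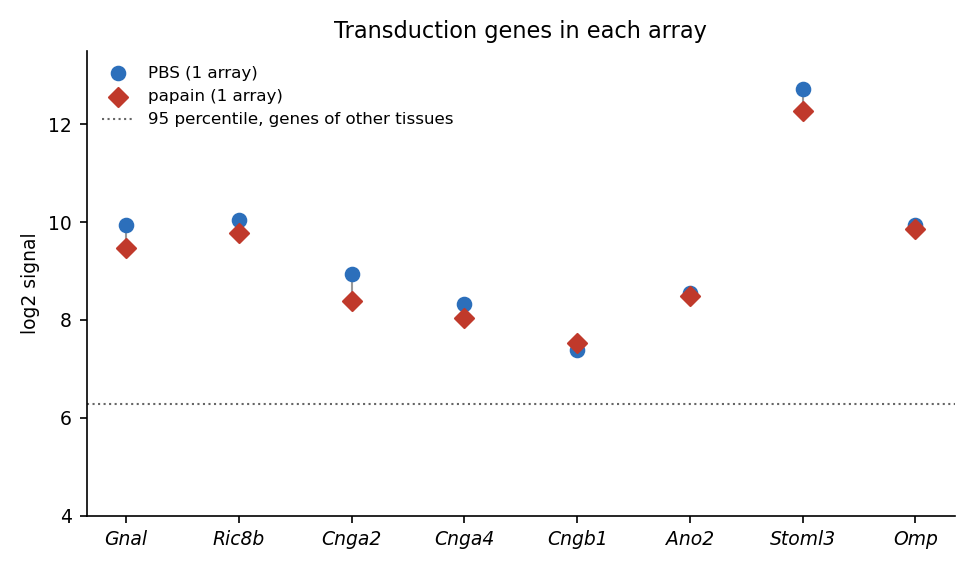
Log2 signal of the 8 measured transduction genes in the PBS array (circles) and the papain array (diamonds), 1 array each, with the 95 percentile of genes of other tissues as a dotted line at 6.29. Cnga2, Gnal and Stoml3 show the widest gaps, with papain lower, and Cngb1 is the only gene with papain higher.

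The G protein step was represented by its alpha subunit and that subunit's chaperone, and both read lower after papain. Gnal, the olfactory alpha subunit that couples odorant receptors to the cyclase, had a log2 signal of 9.46 after papain and 9.93 after PBS, a ratio of -0.47 or 1.38-fold lower. A lower ratio than this was found for 8.62% of the bright genes. Another cluster, which names Gnal together with its neighbour Mppe1, read 7.54 and 7.60, a difference of -0.06, and is assigned to neither gene. Ric8b, the exchange factor and chaperone for Gnal, read 9.78 and 10.05, with a ratio of -0.27, which is 0.83 of the SD of all clusters and 1.18 of that of bright clusters. Gng13, the gamma partner, shares both of its clusters with Chtf18, a DNA replication factor gene. Those clusters read 6.81 against 7.08 and 5.63 against 5.71, papain first, and cannot be given to either gene.

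The second messenger step rests on Adcy3, the cyclase of olfactory cilia, and it too has no cluster of its own. The cluster that names Adcy3 together with Cenpo, a centromere protein gene, read 8.95 after papain and 9.45 after PBS, a log2 difference of -0.50 that is assigned to neither gene. Neither this cluster nor those of Gng13 enters any count or median given here.

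The 3 subunits of the cyclic nucleotide-gated channel had ratios on both sides of 0. Cnga2, the subunit that forms the cyclic AMP-sensitive core of the channel, had the lowest ratio of all 8 genes at -0.57. It read 8.38 after papain and 8.95 after PBS, 1.48-fold lower. Only 4.48% of the bright genes had a lower ratio. Cnga4, a modulatory subunit that speeds the calcium-calmodulin feedback on the channel, read 8.04 and 8.32, a ratio of -0.28. Cngb1, the third subunit, of which a longer form serves rod photoreceptors, read 7.53 and 7.39, a ratio of 0.14 and the only one above 0. The gap between Cnga2 and Cngb1 was 0.71 on the log2 scale, the widest of the 28 pairs among the 8 genes. The probe SD of a difference between genes was 0.45 from all clusters and 0.32 from bright ones, so this gap amounted to 1.57 or 2.22 SD. It was the only pair past 2 SD by the bright clusters, a group to which Cngb1 does not belong, and by all clusters no pair was. Cnga2 and Cnga4 differed by 0.65 SD by all clusters, and Cnga4 and Cngb1 by 0.92. The 8 ratios had an SD of 0.24, against a probe SD of 0.32 from all clusters and 0.23 from bright ones.

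The calcium-activated chloride channel and the marker of mature neurons were nearly equal in the arrays. Ano2, which carries the calcium-activated chloride current of these neurons, read 8.49 after papain and 8.56 after PBS, a ratio of -0.06 that became 0.03 after loess. Omp read 9.87 and 9.94, a ratio of -0.08, close to the median of bright genes. Stoml3, in contrast, read 12.27 and 12.71, a ratio of -0.44 or 1.35-fold lower, with 10.1% of the bright genes at a lower ratio. Ranked from lowest to highest, the ratios ran Cnga2, Gnal, Stoml3, Cnga4, Ric8b, Omp, Ano2, Cngb1, and no neighbours in this order differed by more than either probe SD of a difference. The part of vomeronasal tissue, whose markers were brighter in the papain array, in the readings of Omp and Ano2 was not tested.

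**Figure D2:**
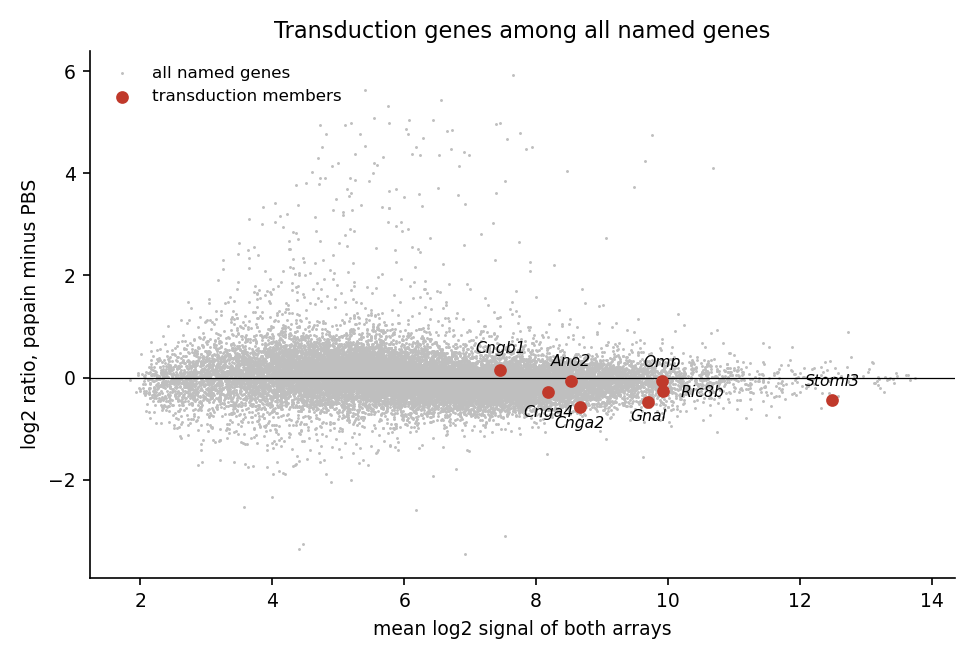
Log2 ratio of papain over PBS (vertical axis) against the mean log2 signal of both arrays (horizontal axis) for all 22184 named genes in grey and the 8 transduction genes in red. The transduction genes lie from -0.57 (Cnga2) to 0.14 (Cngb1), and 4.48% of the bright genes have a lower ratio than Cnga2.

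Genes that act before or after these 10 in the same neurons were taken as a separate list of 15 symbols. Grk3 was listed under its older symbol Adrbk2 as well, and 13 genes were measured. Their median log2 ratio was 0.43, with 9 above 0 and 4 below, and 1 gene past 1.5-fold in each direction. After loess these counts were 4 higher and 0 lower, and with 32 linear units added they were 0 and 0. Among all named genes 5.38% were higher and 4.34% lower at 1.5-fold by the ratios as deposited. These shares were not counted after loess or with units added. The genes of receptor export stood on the higher side, a grouping by role within the list that was made with the values known. Rtp1 and Rtp2, which carry odorant receptors to the cell surface, read 9.76 against 9.32 and 8.21 against 7.67, ratios of 0.45 and 0.54. Gfy, a Golgi protein of olfactory neurons, read 10.86 against 10.26, a ratio of 0.60 and the highest of the list. Reep1, a relative of receptor export proteins named after its value was seen, had a ratio of 0.50.

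Of 7 genes that help to end or adapt the response, grouped after their values were seen, 4 were below 0 and 3 above. Grk3, the kinase that phosphorylates active odorant receptors, read 7.25 after papain and 7.92 after PBS, a ratio of -0.66. Pde1c, the calcium-activated phosphodiesterase of olfactory cilia, had -0.52 and Pde4a, another cyclic AMP phosphodiesterase, had -0.15. Slc24a4, the exchanger that clears calcium after a response, had -0.30. On the higher side, Arrb2, an arrestin that binds phosphorylated receptors, had 0.49 and Atp2b2, a calcium pump of the plasma membrane, had 0.55 from a PBS signal of 5.39. Camk2a, a calmodulin-dependent kinase subunit, had 0.43, and all of these were named once their values were known. Of the remaining genes asked for by name, Gnb1, a G protein beta subunit, had 0.19 and Slc12a2, the cotransporter that loads chloride into these neurons, had 0.24. Several of these genes, such as Gnb1, Arrb2 and Slc12a2, are used by many cell types, so their ratios are not those of olfactory neurons alone.

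**Figure D3:**
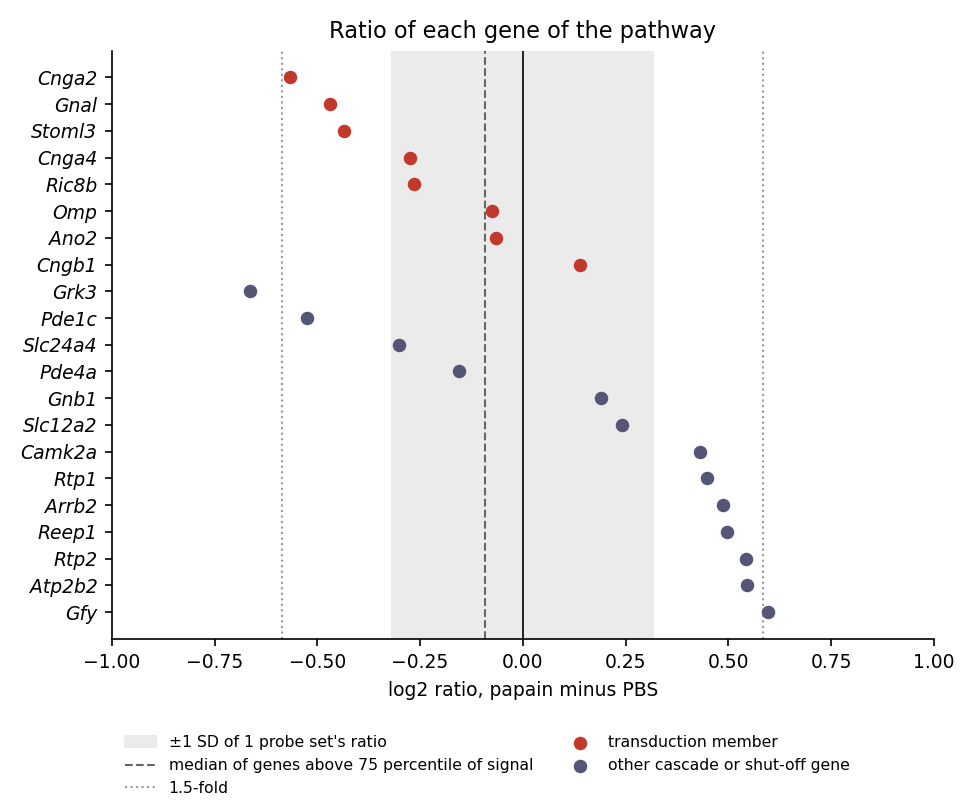
Log2 ratio of papain over PBS for the 8 transduction genes (red) and 13 other genes of odorant signalling (dark points), each sorted from low to high. The grey band spans 1 SD of all repeated clusters (0.32) on either side of 0, the dashed line is the median of bright genes (-0.09) and dotted lines mark 1.5-fold, which only Grk3 (-0.66) and Gfy (0.60) pass.

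Genes needed to bring these proteins into cilia lay nearer to the transduction genes. Of 11 measured cilium transport genes, 9 were below 0, their median was -0.20 and none reached 1.5-fold. Among all named genes 54.4% were below 0, and among bright ones 63.8%, with a bright median of -0.09. After loess the median of the transport genes was -0.10. Bbs1, a subunit of the BBSome coat that moves membrane proteins in cilia, was the lowest at -0.55 and Kif17, a ciliary kinesin motor, the highest at 0.23. Respiratory ciliated cells also use most of this machinery, and their 7 measured markers were all below 0, with a median of -0.45 and summed linear signals of 4787 after papain and 6674 after PBS. Foxj1, the regulator of motile cilia, had -0.54, Rsph1 -0.61 and Tppp3 -0.59, and all 7 were above background. The part of ciliated cells in the ratios of the transport genes was not tested.

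Other genes of olfactory neurons did not follow the transduction genes as a group. The 18 identity genes, chosen to exclude the 10 members, had a median of 0.11 with 10 above 0 and 8 below, 3 of them higher and 2 lower at 1.5-fold. S100a5, a calcium-binding protein of active olfactory neurons, read 10.21 after papain and 11.27 after PBS, a ratio of -1.07 and lower than that of any transduction gene. Ebf4, a transcription factor gene, had -0.63. Pcdh10, a protocadherin, had 0.80 and Slc17a6, the vesicular glutamate transporter of these neurons, had 0.69. The 12 measured genes of immature olfactory neurons and progenitors had a median of 0.17 with 11 above 0, with Gng8, a G protein gamma subunit of immature olfactory and of vomeronasal neurons, at 0.99 and Gap43, a growth cone protein, at 0.01. Both Neurog1 and Neurod1 were below background in each array.

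Markers of other cells that the specimens held are given beside these ratios. The 10 vomeronasal neuron genes were all above 0, with a median of 1.78 and summed linear signals of 7513 after papain and 2876 after PBS. H2-M1, S100z, Calr4 and H2-M10.5 had ratios of 3.88, 3.73, 3.35 and 3.04, with the PBS signals of all of these but S100z below background. Trpc2, the channel of vomeronasal transduction, had 0.83. Pan-neuronal genes, used by olfactory and vomeronasal neurons alike, had a median of 0.26 with 10 of 12 above 0, and their sums were 2671 and 1960. Syt1, a synaptic vesicle calcium sensor, had 0.89 and Uchl1, an abundant neuronal hydrolase, had 0.65, while Nefl at 0.96 was below background in both arrays. The part of vomeronasal tissue in the ratios of the transduction, export and identity genes was not tested.

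Supporting and connective cells of the same mucosa were lower or nearly equal. The 9 measured genes of sustentacular cells, which surround olfactory neurons, had a median of -0.07 and sums of 18148 and 19771, with Cyp2g1 at 0.01 and Hes1, a Notch target, at -0.71. All 7 fibroblast genes were below 0 with a median of -0.38 and sums of 12280 and 17644, led by Col1a2 at -0.78, Pdgfrb at -0.62 and Col1a1 at -0.60. Ensheathing and Schwann cell genes, the glia of the olfactory nerve, had a median of -0.49 over 7 genes with 5 below 0 and sums of 870 and 956, and Frzb was lowest at -0.67. The summed signal of the 8 transduction genes themselves was 8618 after papain and 11079 after PBS, a sum in which Stoml3 alone made up 4954 and 6702. A median of -0.27 therefore stood beside lower medians in 3 non-neuronal lists and one nearer to 0, -0.07, in sustentacular cells. The share of each cell type in the specimens was not tested.

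**Figure D4:**
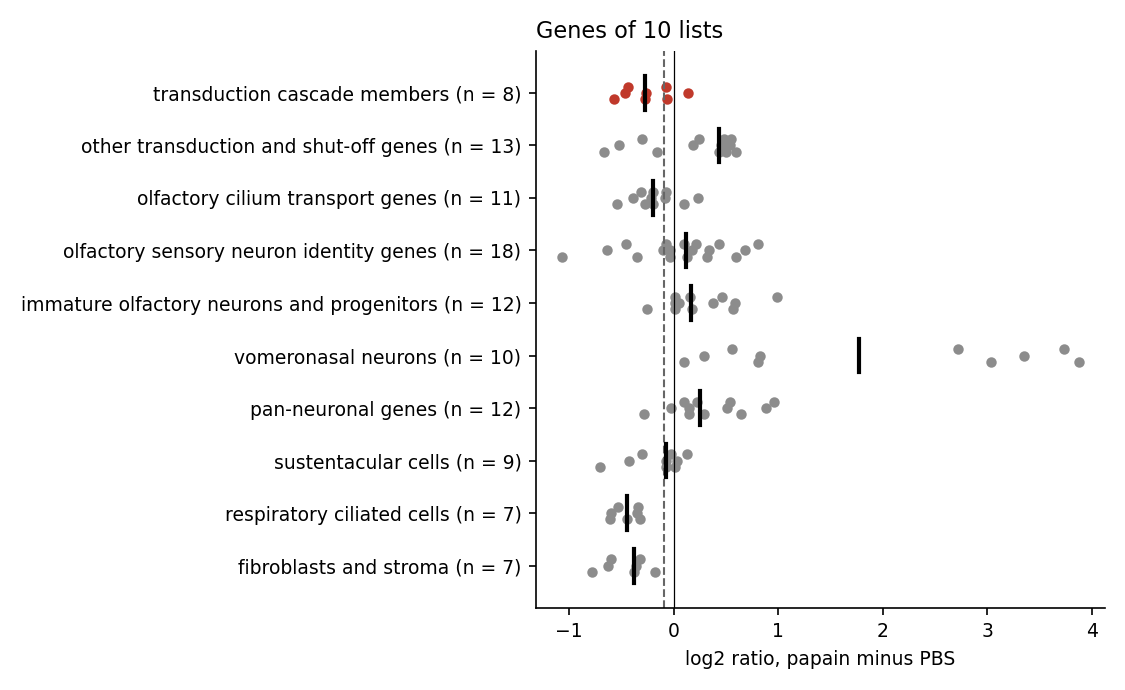
Log2 ratio of papain over PBS for the genes of 10 lists, with each gene as a point and the list median as a black bar; the dashed line is the median of bright genes (-0.09). The transduction genes (red, median -0.27) lie between the ciliated cell genes (median -0.45) and the olfactory identity genes (median 0.11), and the vomeronasal genes (median 1.78) lie apart.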

How the data were processed

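Transcript clusters of 2 Affymetrix Mouse Gene 2.0 ST arrays, 1 per treatment, were used as the log2 signals the authors deposited, a scale read from the values. Per the submitters' processing notes, Transcriptome Analysis Console 4.0 was used. How background, summarisation and normalization were handled, and on which genome build, is not stated in the labels. If the arrays were equalised, ratios are relative to the bulk of clusters. The platform annotation gives 23525 of the 41345 clusters a single symbol, 1810 more than that and 16010 no symbol, and only the first kind was named. The brightest cluster per gene by the mean of both arrays was kept, which gave 22184 genes, and each of the 8 measured members had a single such cluster.

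The log2 ratio was papain minus PBS, and 1.5-fold corresponds to 0.58. A single array per group allowed no test, and precision is limited by the number of arrays. The members and lists were chosen with earlier results of these data known. Genes named were all members, in each list up to 4 genes past 1.5-fold or otherwise the highest and lowest, and Rtp1, Rtp2, Gnb1, Pde1c, Pde4a, Slc12a2, Slc24a4, Gnas, Trpc2, Foxj1, S100a5, Cyp2g1 and Gap43. Alternatives were quantile normalization, centring, loess (span 0.3), averaged clusters, 32 linear units added, other floors and a threshold of 0.32 on the log2 scale. Counting steps were tested on simulated data. Python 3.11.15, numpy 2.4.6, pandas 2.3.3, statsmodels 0.14.6 and matplotlib 3.10.9 were used.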

Additional observations from a re-analysis of the deposited data

How the results depend on the processing

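The members' median log2 ratio stayed below 0 under all 6 alternatives for the ratios, between -0.27 and -0.19, and the number of members below 0 was 7, or 6 after loess, where Ano2 turned to 0.03. The share of all genes below 0 was not counted under these alternatives. No member reached 1.5-fold under any of the 6, and averaging clusters moved no member, since each had a single cluster. With the threshold lowered from 1.5-fold to a log2 difference of 0.32, 3 members were lower, against 17.3% of all named genes. The share of named genes lower at 2-fold, 0.730% without a floor, was 0.385% with a floor at the median signal and 0.299% with a floor at the 75 percentile. Of the other signalling genes, Grk3 was no longer past 1.5-fold after loess (-0.54) and with 32 linear units added (-0.57), and Gfy was not with 32 units added (0.58). Past 1.5-fold were also Rtp2 after quantile normalization (0.61) and, after loess, Rtp2 (0.65), Reep1 (0.60) and Arrb2. The probe SD of bright clusters and these counts were chosen after seeing the data. Of the 22 list medians, 4 changed sign in some alternative, those of tuft and microvillar cells, leukocytes, G protein gamma subunits and adenylyl cyclases, and that of vomeronasal neurons moved to 1.30 with 32 units added. No paired analysis was possible because each group had 1 array. With 1 array per group, no difference of any size can be separated here from variation between animals, specimens or arrays. The log2 ratio of a dim gene can also understate its fold or overstate it. Below background in both arrays, Alb had 0.62 and Ly6g -0.72.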

Other observations

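Paralogs of the transduction genes, several of them below background in both arrays, are given by family. Among 11 G protein gamma subunit genes the median log2 ratio was 0.03, with Gng3, a neuronal subunit, at 1.15 (6.96 after papain, 5.81 after PBS), Gng8 at 0.99 and Gng2 at 0.87, and none lower at 1.5-fold. The 15 other alpha subunit genes had a median of -0.11, from Gna11, a partner of phospholipase C, at -0.66 to Gnat3, the alpha subunit of taste and tuft cells, at 0.72. Gnat1, the alpha subunit of rods, had -0.59 with its papain signal below background, and Gnas, the broadly used stimulatory subunit, had -0.10 from a cluster of low signal, 5.56 against 5.66. Adenylyl cyclases other than Adcy3 had a median of -0.01 over 9 genes, with Adcy8 at 0.53, its PBS signal below background, and Adcy6 at -0.33.

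Channel and accessory paralogs stayed within 1.5-fold. The 3 other cyclic nucleotide-gated subunit genes were dim, and Cnga1 and Cngb3 were below background in both arrays. Cnga3, the subunit of cones and of olfactory neurons with guanylyl cyclase D, read 5.10 against a PBS signal of 4.67 below background. Among the 5 genes of those guanylyl cyclase neurons the median was 0.11, with Gucy2d itself at 5.08 and 5.05 and Car2, a carbonic anhydrase of many cells, at 0.79. Anoctamins other than Ano2 had a median of 0.06 over 9 genes, from Ano6, a phospholipid scramblase, at -0.39 to Ano3, below background in both arrays, at 0.38. Of the Ric8 and stomatin relatives, Stoml2, a mitochondrial protein, had -0.50 and Stom 0.13, with a median of -0.22 over 4 genes.

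Lists of the remaining cells had medians near 0. Basal cell genes had -0.14 over 4 genes, with Kit at -0.31 and Trp63 at 0.02. Tuft and microvillar cell genes had 0.04 over 8 genes, with Gnat3 at 0.72. Secretory and gland genes had 0.06 over 9 genes, with Muc5ac, an airway mucin, at 0.61. Leukocyte genes had 0.03 over 8 genes, and Ly6g, at -0.72, was below background in both arrays. The 33 genes of other tissues had a median of 0.13, with Myh6 at 0.74, Alb at 0.62 and Gnat1 at -0.59.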
